A study of Mus musculus with 2 samples.

Results

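The heat shock proteins and chaperones described here are 10 of the 27998 genes counted in spinal cord cells of the mouse, taken as every row of both count matrices that carries the symbol Hspa1a, Hspa1b, Hsph1, Hspb1, Dnajb1, Hsp90aa1, Hspa8, Hsp90ab1, Dnaja1 or Hspa5. Each of these symbols matched 1 row in each matrix. The first 6 are called inducible below and the last 4 constitutive, by textbook usage.

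Chaperones bind unfolded or newly made proteins and help them fold. When cells are heated or otherwise stressed, misfolded protein draws chaperones away from the transcription factor Hsf1, which then binds heat shock elements in the promoters of the inducible genes. The constitutive members serve folding in unstressed cells, and Hspa5 does so in the endoplasmic reticulum, where accumulating unfolded protein raises it through a separate promoter element. In microglia, the resident macrophages of brain and spinal cord, enzymatic dissociation of tissue at warm temperature is known to raise heat shock and immediate early genes.

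Sorted cells of 2 groups were compared, each as a single 10x Chromium 3′ library of version 2 chemistry. The KO-labelled library came from mice labelled Runx1 knock-out, which received tamoxifen intraperitoneally at 1 mg per day on 5 days. The WT-labelled library came from mice labelled wild type, which received vehicle instead. Both groups carried the same alleles, Cx3cr1-CreERT2-YFP::flxRunx1, on a C57BL/6J background, so a Cre driven from the Cx3cr1 locus of mononuclear phagocytes and a floxed Runx1 were present in the vehicle mice too. Effects of the drug and of the deletion cannot be told apart. Cells positive for the yellow fluorescent protein were sorted 4 weeks after the first injection, after 30 min of digestion at 37 °C with 2 mg/ml collagenase in both groups. The labels used here give neither age nor the number of animals pooled.

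The KO-labelled library held 2604 barcodes and 13075939 UMIs (unique molecular identifiers, each marking 1 captured RNA molecule), and the WT-labelled library held 4582 barcodes and 37446978 UMIs, beside 2600 and 4500 recovered cells in the labels. Medians were 3718.5 and 6376 UMIs per kept cell, and 9 barcode sequences occurred in both. With 1 library per group no test was possible: intervals are 95% intervals for counting error. They leave out the spread between cells, and animals or libraries may vary more. Runx1 was at 181 CPM (counts per 1000000 UMIs of the class) in KO-labelled microglia-like cells and 93.2 CPM in WT-labelled ones. The tags come from 3′ ends and the floxed exons are not named, so these Runx1 counts check neither label, and each direction below compares the libraries as labelled. Cells were clustered without the members. Microglia-like cells numbered 1353 and 2179, with 12 of 12 microglia markers counted in each of their clusters, but 1350 of the KO-labelled ones lay in a cluster led by Cebpb, Cfp and Socs3 and the 2179 WT-labelled ones in another led by Olfml3, Ccl3 and Gpr34. Endothelial-like cells numbered 834 and 1618, and they too lay in separate clusters by library.

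Of the 10 members, 7 have a RefSeq promoter window (GRCm38.p6), from 250 bases before to 50 bases after the annotated start. The 250 bases before the start are printed for 4 members that stand for the patterns described below: Hspa1a (chr17:34972157-34972406, minus strand) and Hsph1 (chr5:149636337-149636586, minus strand), both higher in KO-labelled microglia-like cells, Hspb1 (chr5:135887669-135887918, plus strand), which was lower there, and Hspa5 (chr2:34771840-34772089, plus strand), the endoplasmic reticulum member. Capitals mark pairs of heat shock units (GAANNTTC or TTCNNGAA, each its own reverse complement) in the first 3, and the endoplasmic reticulum stress element (CCAAT and CCACG, 9 bases apart) in Hspa5.
Hspa1a: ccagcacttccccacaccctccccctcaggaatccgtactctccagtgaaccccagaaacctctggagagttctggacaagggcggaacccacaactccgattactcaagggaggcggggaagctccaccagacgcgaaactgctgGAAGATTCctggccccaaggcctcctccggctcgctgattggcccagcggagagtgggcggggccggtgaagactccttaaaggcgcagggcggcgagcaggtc
Hsph1: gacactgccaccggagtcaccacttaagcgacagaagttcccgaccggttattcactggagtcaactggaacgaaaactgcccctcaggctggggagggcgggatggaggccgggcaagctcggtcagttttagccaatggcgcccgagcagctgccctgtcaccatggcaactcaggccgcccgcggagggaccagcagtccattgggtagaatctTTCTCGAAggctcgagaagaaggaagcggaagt
Hspb1: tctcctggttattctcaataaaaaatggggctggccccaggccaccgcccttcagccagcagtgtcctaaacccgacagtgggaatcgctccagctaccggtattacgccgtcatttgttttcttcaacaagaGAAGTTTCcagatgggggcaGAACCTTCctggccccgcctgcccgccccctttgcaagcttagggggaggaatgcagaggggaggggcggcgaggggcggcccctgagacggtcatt
Hspa5: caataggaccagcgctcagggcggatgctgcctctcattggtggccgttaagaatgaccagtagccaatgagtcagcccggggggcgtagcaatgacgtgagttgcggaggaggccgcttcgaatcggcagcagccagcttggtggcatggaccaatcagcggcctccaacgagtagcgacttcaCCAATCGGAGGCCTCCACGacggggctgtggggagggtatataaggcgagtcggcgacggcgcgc
A pair of heat shock units stood in a window of 5 of the 7 members (Hspa1a, Hspa1b, Hsph1, Hspb1 and Dnaja1) and in a window of 17.0% of the 27025 genes with one (15.1% of all 32851 windows). Hspb1 held 2 such pairs, with first bases 117 and 97 bases before the start. Hspa1a and Hspa1b each held 1 at 104 bases before it. Hsph1, in the window whose first 250 bases are printed, had a pair 33 bases before the start. Past the printed bases, a run of 3 alternating units began 36 bases after the start. Such a run is contained in 0.603% of all windows. The stress element was found in Hspa5, 65 bases before its start, and in 0.119% of windows. Hspa8, Hsp90aa1 and Hsp90ab1 are named only.

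The Hspa1a and Hspa1b windows differed at 4 of 300 bases, written as the Hspa1b base, the position from 1 at the 5′ end of the window, and the Hspa1a base: T44C, C47T, G249T and T276C. Both genes have 1 exon, Hspa1a at chromosome 17, 34969190 to 34972156, and Hspa1b at 34956436 to 34959238 (GENCODE M21, GRCm38, minus strand). Their coding sequences were 99.4% identical, and 75.3% of the 75-base stretches of the Hspa1a coding sequence also occur in Hspa1b. After the stop codon none of the 736 such stretches of Hspa1a occurs in Hspa1b. The labels do not say how reads shared by both genes were counted, so each gene's own count is uncertain, and their sum is given beside them.

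In microglia-like cells, 5 of the 6 inducible members were higher in the KO-labelled library and 1, Hspb1, was lower, while 3 of the 4 constitutive members had log2 ratios (KO-labelled over WT-labelled) between -0.13 and 0.09. A member is called past the fold where the libraries differ at least 1.5-fold with an interval that leaves out equality. Hspa1b, Hsph1, Hsp90aa1 and Dnajb1 were past the fold on the higher side and Hspb1 on the lower side. Among the 5749 genes at 20 CPM or more in either library, 8.09% were past it on the higher side and 12.4% on the lower side. The median log2 ratio was 0.66 for the inducible members, 0.06 for the constitutive ones and -0.04 for all genes.

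Hspa1a and Hspa1b encode the stress-inducible cytosolic HSP70. Hspa1a had 3669 CPM (3621 to 3717) in KO-labelled and 2515 CPM (2490 to 2540) in WT-labelled microglia-like cells, 1.46-fold higher (log2 0.54, 0.52 to 0.57) and so just short of the fold. Hspa1b had 375 CPM (360 to 391) in KO-labelled and 170 CPM (163 to 176) in WT-labelled cells, 2.21-fold higher (log2 1.15, 1.06 to 1.23). Summed, the pair differed by 0.59 on the log2 scale. Hspa1b made up 9.27% of the pair's UMIs (8.91 to 9.64) in KO-labelled and 6.31% (6.08 to 6.55) in WT-labelled microglia-like cells. This share was also larger in the KO-labelled library in endothelial-like cells, at 7.46% (6.99 to 7.95) against 5.79% (5.54 to 6.05), so the unequal difference of both genes was not seen in microglia-like cells alone.

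Hsph1 encodes HSP110, a nucleotide exchange factor that releases client protein from HSP70. It had 147 CPM (137 to 157) in KO-labelled and 74.8 CPM (70.6 to 79.2) in WT-labelled microglia-like cells, 1.96-fold higher (log2 0.97, 0.84 to 1.10). Dnajb1, the HSP40 co-chaperone that delivers clients to HSP70, had 690 CPM (669 to 711) in KO-labelled and 438 CPM (428 to 449) in WT-labelled cells, 1.57-fold higher. Hsp90aa1, the inducible cytosolic HSP90, had 1733 CPM (1700 to 1766) in KO-labelled and 1095 CPM (1079 to 1112) in WT-labelled cells, 1.58-fold higher. The intervals of both ratios overlap. Each fell short of the fold in some alternatives, Dnajb1 at log2 0.48 with each library clustered on its own and Hsp90aa1 at 0.54 with a library-wide RNA profile subtracted.

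Hspb1 encodes the small heat shock protein HSP27 (HSP25 in mouse), which holds unfolded protein without using ATP and is abundant in vessel cells. It had 410 CPM (394 to 426) in KO-labelled and 930 CPM (914 to 945) in WT-labelled microglia-like cells, a log2 ratio of -1.18 (-1.24 to -1.12). After thinning each cell to 1500 UMIs, 39.5% of KO-labelled and 72.1% of WT-labelled microglia-like cells had an Hspb1 UMI (66.4% and 97.9% unthinned). The same cells differed in RNA of vessel cells: all 9 endothelial markers were lower in KO-labelled microglia-like cells, summing to 2120 CPM there and 6453 CPM in WT-labelled ones, none of them at 0 in either library. All 9 pericyte markers were lower as well, at 145 CPM in KO-labelled and 302 CPM in WT-labelled cells.

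Every one of the 2179 WT-labelled microglia-like cells had a UMI of Cldn5, Flt1 or Pecam1, and 68 KO-labelled ones had none, so cells without these markers gave no comparison. Sorted into terciles by their endothelial marker share, KO-labelled cells had 415, 373 and 452 CPM of Hspb1 from the lowest to the highest tercile, and WT-labelled cells had 886, 955 and 939 CPM. Among the cells with 2000 to 5000 CPM of endothelial markers (682 KO-labelled, 234 WT-labelled), the log2 ratio was -1.09, with marker sums of 2601 CPM in KO-labelled and 4521 CPM in WT-labelled cells. With the library-wide RNA profile subtracted in the amount scaled by the endothelial markers (19.7% of KO-labelled and 49.9% of WT-labelled UMIs), Hspb1 had 253 CPM in KO-labelled and 483 CPM in WT-labelled cells, a log2 ratio of -0.93. In every tercile, in the marker band and after the subtraction, the Hspb1 value of the KO-labelled library was the lower one. The terciles were cut within each library and their marker levels did not overlap. Endothelial markers were at 1279, 2023 and 3052 CPM in the KO-labelled terciles and 5233, 6338 and 7678 CPM in the WT-labelled ones. Neither terciles nor band compared cells with equal marker sums, so the part of vessel cell RNA in the Hspb1 gap was not tested.

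Among the constitutive members, Hspa8, the HSP70 cognate that works in unstressed cytosol and in clathrin uncoating, differed most in microglia-like cells. It had 3014 CPM (2970 to 3057) in KO-labelled and 2379 CPM (2355 to 2404) in WT-labelled cells, 1.27-fold higher and under the fold. Hsp90ab1, the constitutive cytosolic HSP90, had 1480 CPM (1450 to 1511) in KO-labelled and 1451 CPM (1433 to 1470) in WT-labelled cells, intervals that overlap. The inducible and the constitutive HSP90 gene therefore differed between the libraries by unequal amounts, log2 0.66 (0.63 to 0.70) against 0.03 (-0.01 to 0.06). Dnaja1, a J-domain partner of HSP70, had 327 CPM in KO-labelled and 358 CPM in WT-labelled cells (log2 -0.13), and Hspa5 (BiP), which folds and retains proteins in the endoplasmic reticulum, had 766 and 721 CPM (log2 0.09). The signs of these small Dnaja1 and Hspa5 ratios turned round, to 0.23 and -0.07, once the library-wide profile was subtracted.

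**Figure D1:**
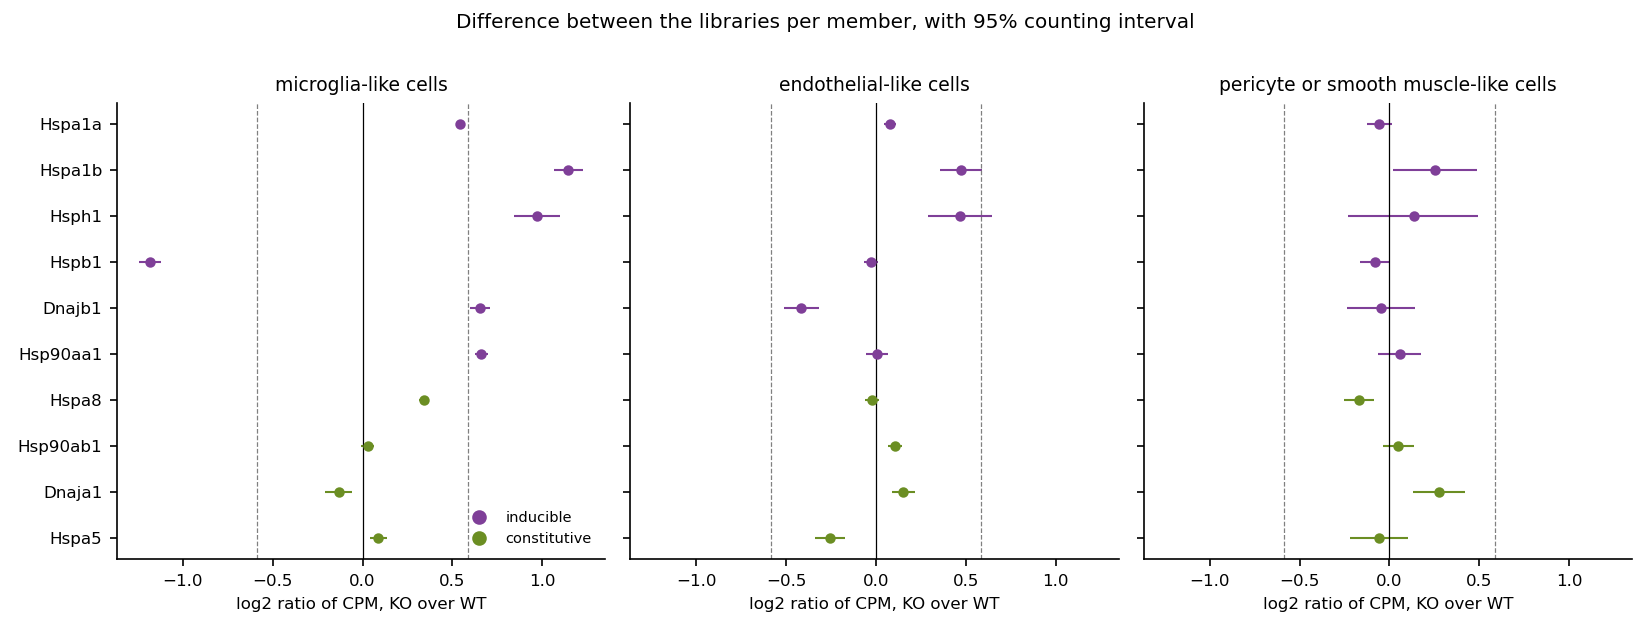
Log2 ratio of CPM (KO-labelled over WT-labelled, horizontal axis) of each of the 10 members in microglia-like, endothelial-like and pericyte or smooth muscle-like cells, with 95% counting intervals; dashed lines mark a 1.5-fold difference. In microglia-like cells 4 inducible members lie past the upper line and Hspb1 at -1.18 past the lower one, while no member passes either line in the other classes.

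In endothelial-like cells, which line vessels, 0 of the 10 members were past the fold, where 5.3% of 6283 genes were past it on the higher and 6.13% on the lower side. The median log2 ratio was 0.04 for the inducible and 0.04 for the constitutive members, against 0.09 for all genes. Hspa1b had 221 CPM (207 to 236) in KO-labelled and 159 CPM (152 to 167) in WT-labelled cells, and Hsph1 had 95.7 CPM (86.3 to 106) and 69.1 CPM (64.4 to 74.0), both with a log2 ratio of 0.47. With clustering at resolution 1.0, which put 929 KO-labelled cells with 8834 CPM of microglia markers in this class, both were past the fold at 0.69. Hspa1a had 2739 CPM in KO-labelled and 2593 CPM in WT-labelled cells (log2 0.08), and Hsp90aa1 at 682 and 680 CPM with overlapping intervals. Dnajb1 was on the other side, with 269 CPM (253 to 285) in KO-labelled and 358 CPM (348 to 369) in WT-labelled endothelial-like cells (log2 -0.42, -0.51 to -0.32). Hspb1 had 1883 CPM (1841 to 1926) in KO-labelled and 1921 CPM (1896 to 1947) in WT-labelled cells, so the Hspb1 gap of the microglia-like class was not present where the gene was highest. Hspa8 (1954 and 1985 CPM), Hsp90ab1 (1846 and 1717 CPM), Dnaja1 (684 and 615 CPM) and Hspa5 (373 and 446 CPM) had log2 ratios between -0.26 and 0.15.

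Microglia markers were found in these cells too, summing to 5194 CPM in KO-labelled and 12730 CPM in WT-labelled endothelial-like cells, with 12 of 12 lower in the KO-labelled ones. With the library-wide profile subtracted in the amount scaled by these markers, Dnajb1 in endothelial-like cells had a log2 ratio of -0.63. Its levels were then 208 CPM in KO-labelled and 321 CPM in WT-labelled cells. This difference is more than 1.5-fold on the lower side, but it has no interval and so is not called past the fold. In pericyte or smooth muscle-like cells (141 KO-labelled, 200 WT-labelled), 0 of the 10 members were past the fold, where 7.99% of 6712 genes were past it on the higher and 5.84% on the lower side, and the medians were 0.01 for inducible and -0.00 for constitutive members.

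Microglia-like, endothelial-like, pericyte or smooth muscle-like, erythrocyte-like and ependymal-like cells were ranked by level, and their order depended on the member. Smaller classes were not ranked, among them oligodendrocyte-like cells (8 KO-labelled, 18 WT-labelled). The WT-labelled oligodendrocyte-like cells had 2738 CPM of Hspa8 and 331 CPM of Dnaja1. Hspb1 was highest in endothelial-like cells in both libraries. Pericyte or smooth muscle-like cells came next, at 1696 CPM (1615 to 1781) in the KO-labelled and 1791 CPM (1737 to 1847) in the WT-labelled library. Erythrocyte-like cells followed at 1248 and 1377 CPM. Endothelial markers summed to 14455 and 13993 CPM in pericyte or smooth muscle-like and 14076 and 14488 CPM in erythrocyte-like cells. In endothelial-like cells they summed to 22802 and 21084 CPM. The part of endothelial RNA in the Hspb1 levels of the other classes was not tested. Endothelial-like cells had 4.59 times the Hspb1 CPM of microglia-like cells in the KO-labelled library and 2.07 times in the WT-labelled one. Ependymal-like cells, which line the central canal and numbered only 26 and 17, had 364 CPM of Hspb1 (283 to 461) in the KO-labelled and 948 CPM (826 to 1081) in the WT-labelled library, values that overlapped those of microglia-like cells in the same library. The Hspb1 gap was thus present in ependymal-like cells too, at a log2 ratio of -1.38 (-1.79 to -0.98). Their endothelial markers summed to 1704 CPM in the KO-labelled and 6542 CPM in the WT-labelled library. Among the ranked classes, Dnaja1 was lowest in microglia-like cells in both libraries. It was highest in endothelial-like cells, with intervals that overlapped those of ependymal-like cells.

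Among the ranked classes, Hspa5 and Hspa8 were highest in microglia-like cells in both libraries. For Hspa5, microglia-like cells had 2.05 times the level of endothelial-like cells in the KO-labelled and 1.62 times in the WT-labelled library. With the library-wide profile subtracted, the levels were 812 and 313 CPM in the KO-labelled and 854 and 286 CPM in the WT-labelled library. The factor was then the larger one in the WT-labelled library. Hsp90aa1 was highest in ependymal-like cells, at 3798 CPM (3525 to 4086) in the KO-labelled and 2334 CPM (2142 to 2539) in the WT-labelled library, and lowest in erythrocyte-like cells, at 546 and 571 CPM. Hsp90ab1 was also highest in ependymal-like cells, at 2954 and 2248 CPM, and Hsph1 had its highest value there as well, 253 CPM (187 to 336) in the KO-labelled and 181 CPM (130 to 245) in the WT-labelled library. These ependymal-like levels rest on 189587 and 232181 UMIs.

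For Hspa1a and Hspa1b the class with the highest level was not the same in both libraries. In the KO-labelled library Hspa1a was highest in microglia-like cells, with 2739 CPM in endothelial-like, 2470 CPM (2372 to 2571) in pericyte or smooth muscle-like, 1913 CPM (1797 to 2035) in erythrocyte-like and 918 CPM (786 to 1065) in ependymal-like cells, none of these intervals overlapping. In the WT-labelled library the endothelial-like (2593 CPM), pericyte or smooth muscle-like (2567 CPM) and microglia-like (2515 CPM) levels lay close together, neighbours in that order overlapping, above 1894 CPM in erythrocyte-like and 1193 CPM in ependymal-like cells. Hspa1b in microglia-like cells was 1.70 times the endothelial-like level in the KO-labelled library and 1.06 times in the WT-labelled one. For Dnajb1, highest in microglia-like cells in both libraries, these factors were 2.57 and 1.22. With the library-wide profile subtracted, Hspa1b had 393 and 197 CPM in KO-labelled microglia-like and endothelial-like cells, and 170 and 149 CPM in WT-labelled ones. Dnajb1 then had 741 and 208 CPM in KO-labelled and 484 and 321 CPM in WT-labelled cells. For both genes the KO-labelled factor stayed the larger one.

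**Figure D2:**
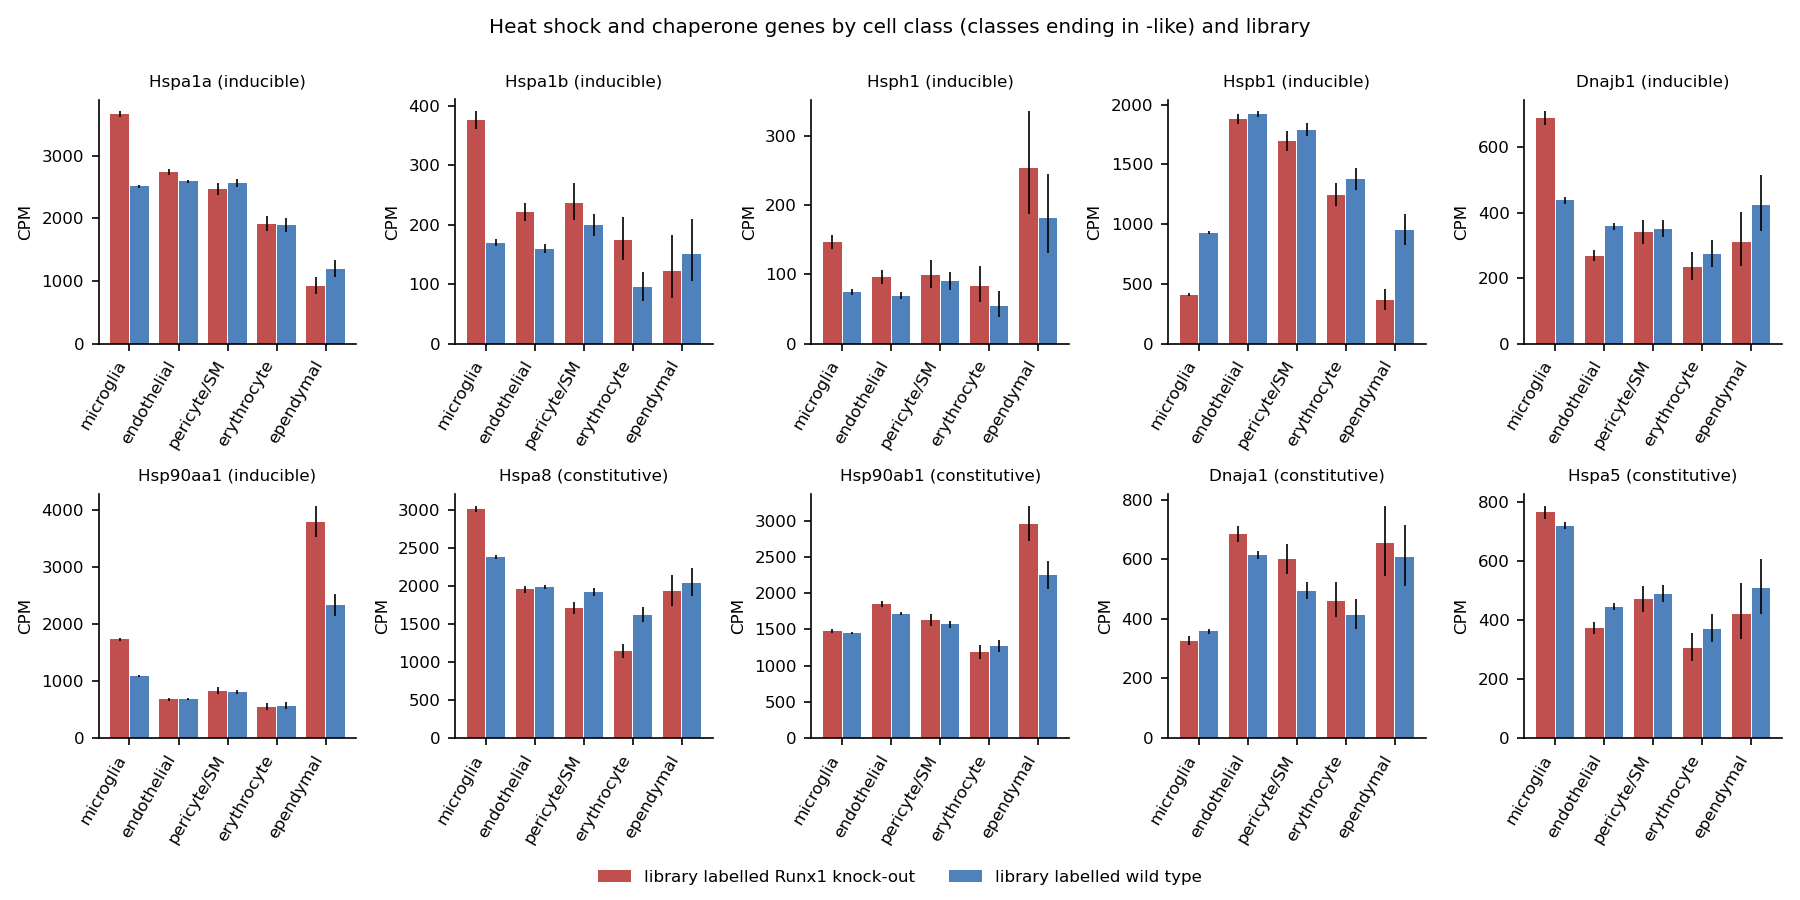
CPM of each member (vertical axes, each from 0) in 5 cell classes, with the library labelled Runx1 knock-out left of the library labelled wild type and 95% Poisson intervals as lines. Hspb1 is highest in endothelial-like cells (1883 and 1921 CPM), Hspa1a is at 3669 and 2515 CPM in microglia-like cells, and Hsp90aa1 differs between libraries in microglia-like and ependymal-like cells.

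As profiles over the 8 combinations of library and class with at least 50 cells (4 classes), the genes closest to Hspb1 among 7414 compared were Pttg1, Kbtbd11, Tmem204, Ifitm2 and Bcam, with Pearson correlations of 0.997 to 0.995. Closest to Hspa1a were Gmeb1, Mapk6, Cebpg, Arpc2 and Mrps11 (0.977 to 0.963), and to Hspa8 Abi1, Sord, Ier3, Jmjd1c and Cux1 (0.991 to 0.982). These points share their libraries and are a description.

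Over single cells, thinned to 1500 UMIs each, the libraries differed most among the microglia-like cells with high counts. The 5 inducible members other than Hspb1 summed to a median of 8 UMIs per KO-labelled and 6 per WT-labelled cell, to 21 and 12 at the 90th percentile, and to 94 and 34 at the highest cell. In endothelial-like cells the medians were 5 and 5 and the 90th percentiles 11 and 10. For the constitutive members, medians were 8 in KO-labelled and 7 in WT-labelled microglia-like cells, and 7 and 7 in endothelial-like cells.

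**Figure D3:**
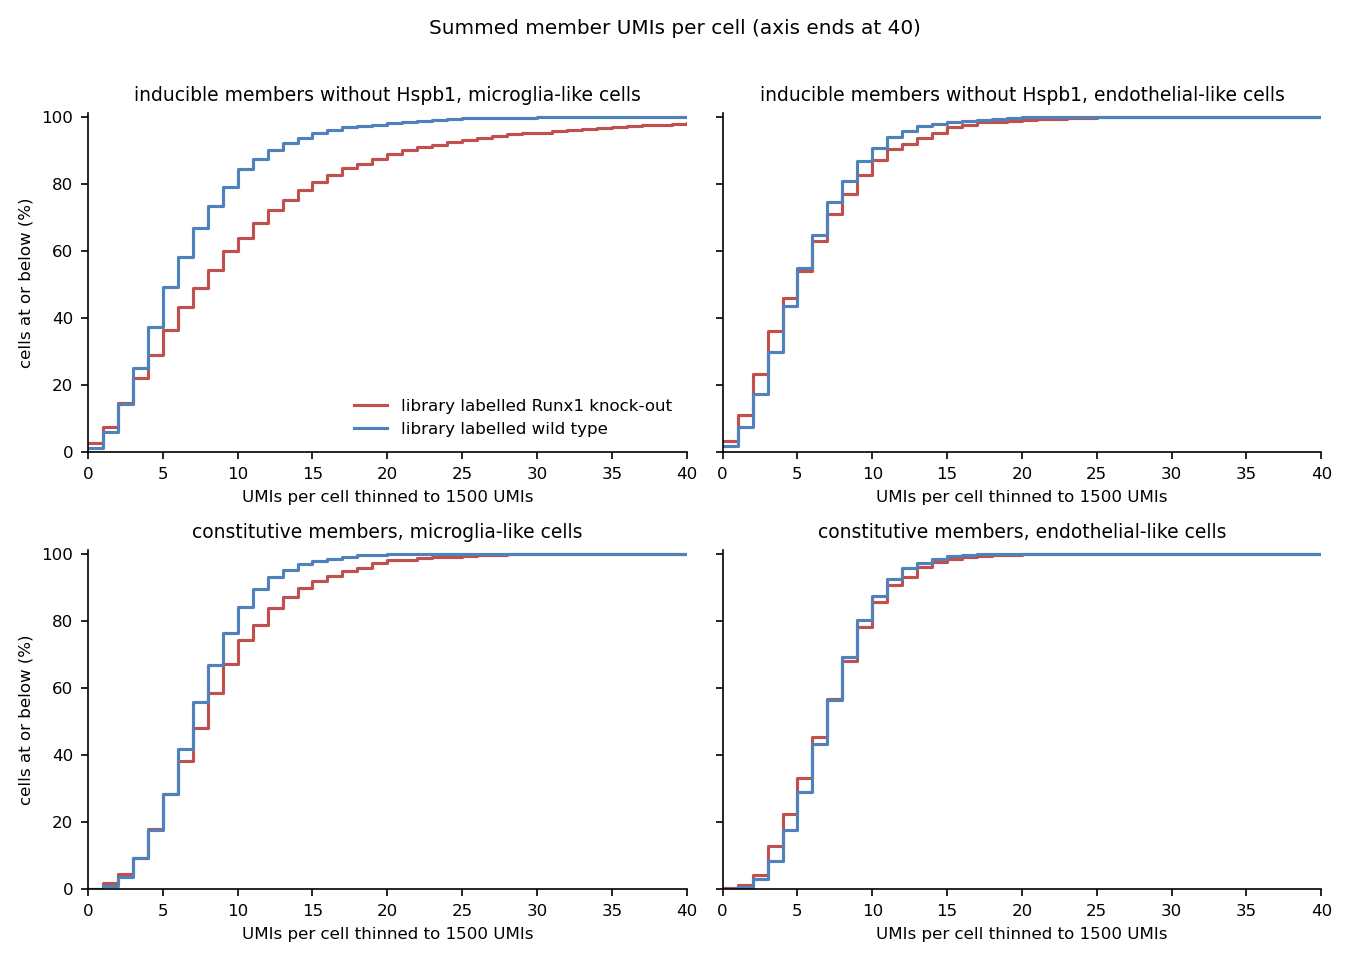
Percent of cells (vertical axes) at or below each summed UMI count (horizontal axes, cells thinned to 1500 UMIs) for the inducible members without Hspb1 (top) and the constitutive members (bottom), in microglia-like (left) and endothelial-like cells (right). The KO-labelled curve runs furthest to the right of the WT-labelled one for the inducible members in microglia-like cells, where the medians are 8 and 6.

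Hspa1a had a median of 4 UMIs in KO-labelled and 3 in WT-labelled microglia-like cells, but 34 and 17 at the 99th percentile. Its variance was 8.93 times its mean in KO-labelled and 3.17 times in WT-labelled cells, where pure counting would give a ratio near equality. For Dnajb1 that ratio was 3.42 in KO-labelled and 1.38 in WT-labelled cells, with a highest cell of 25 and 8 UMIs. The share of cells with any Dnajb1 UMI was 44.8% in KO-labelled and 43.2% in WT-labelled cells, with overlapping intervals, although its CPM differed 1.57-fold. For Hspa1a the share of cells with a UMI was smaller in the KO-labelled library (88.4% and 91.7%), against the direction of its CPM.

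Counting cells above the 99th percentile of the WT-labelled library puts a number on these tails, with at most 1% of WT-labelled cells above it by construction. Above 17 UMIs of Hspa1a lay 6.28% of KO-labelled microglia-like cells (5.05 to 7.71), or 85 cells, and 0.964% of WT-labelled ones. The share was 7.24% (5.92 to 8.76) for Hsp90aa1, 5.03% (3.92 to 6.33) for Dnajb1 and 4.73% (3.66 to 6.00) for Hspa8 in the KO-labelled library, against 0.918%, 0.734% and 0.688% in the WT-labelled one. Hspa8 thus had a long upper tail although it is a constitutive member. For Hspb1 the shares were 0.591% and 0.642%. In endothelial-like cells the KO-labelled shares ran from 0.120% for Hspa5 to 2.16% for Hspb1, and the WT-labelled ones from 0.247% for Dnajb1 to 0.989% for Hspb1. Hspa1a had 1.92% in KO-labelled and 0.803% in WT-labelled endothelial-like cells. The KO-labelled share was the larger for all members but Hspa5 and Dnajb1, with overlapping intervals for each member.

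**Figure D4:**
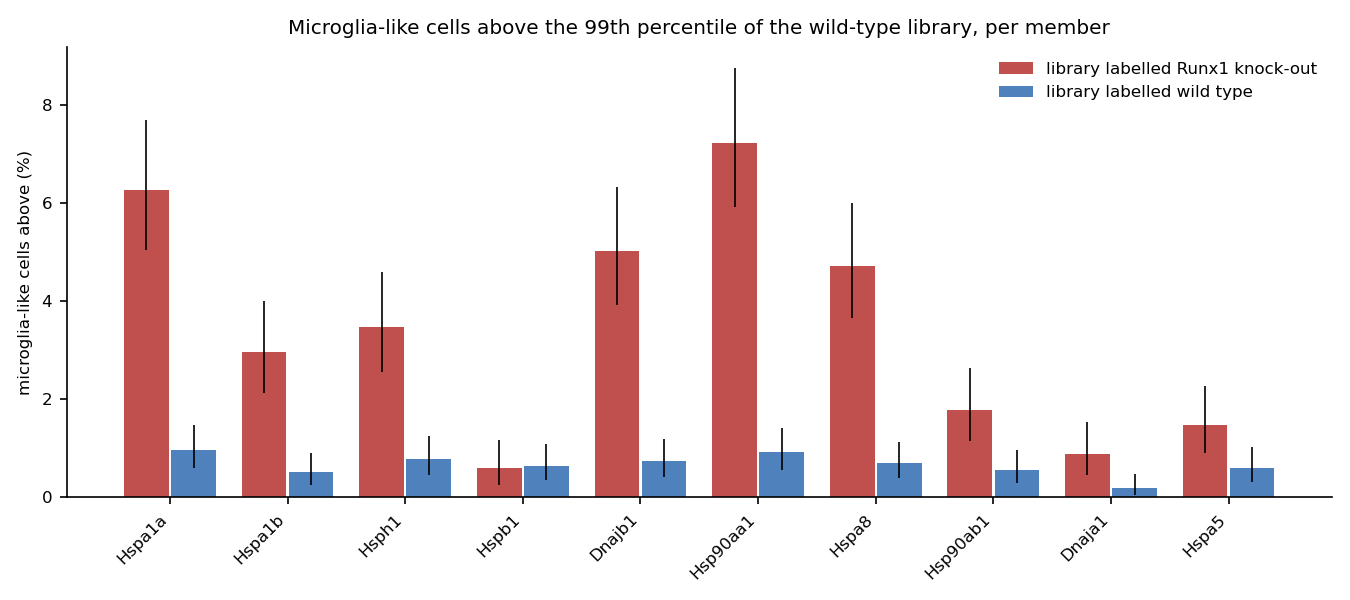
Percent of thinned microglia-like cells (vertical axis, from 0) above the 99th percentile of the WT-labelled library for each member, with the library labelled Runx1 knock-out left of the library labelled wild type and exact 95% binomial intervals. Hsp90aa1 (7.24%), Hspa1a (6.28%), Dnajb1 (5.03%) and Hspa8 (4.73%) have the highest KO-labelled shares, and Hspb1 (0.591%) the lowest.

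Cells high in Hspa1a or Dnajb1 had higher means of most other members, inducible and constitutive, with Hspa1b and Hspb1 in the cells high in Dnajb1 as exceptions. The 85 KO-labelled cells above 17 Hspa1a UMIs averaged 6.46 UMIs of Hsp90aa1 and 7.94 of Hspa8, against 2.38 and 4.41 in the 1268 other KO-labelled microglia-like cells. They averaged 1.96 UMIs of Dnajb1 against 0.953 and 0.835 of Hspa1b against 0.503. The 68 cells above 4 Dnajb1 UMIs averaged 0.5 UMIs of Hspa1b, against 0.525 in the others, but 8.63 of Hspa1a against 5.85, 6.94 of Hspa8 against 4.51, 3.65 of Hsp90aa1 against 2.58 and 0.353 of Hsph1 against 0.216. The cells high in Hspa1a had a median depth of 2716 UMIs and 1.29% mitochondrial UMIs, against 3545 UMIs and 2.29% in the others, and 55.7 UMIs of immediate early genes against 41.7. The part of depth in these tails was not tested beyond the thinning. Thinning did not equalise library-wide RNA, taken above as 19.7% of KO-labelled and 49.9% of WT-labelled UMIs of microglia-like cells. The part of that RNA in the medians, variances and tails of single cells was not tested.

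Where each library was clustered on its own, 2 large clusters in each had 12 of 12 microglia markers counted, and 1 of them had Il1b among its top 10 genes. In the KO-labelled library that cluster (669 cells, with S100a8 and S100a9 in its top 10) stayed unnamed under the naming rule. Hspa1a was lower in the cluster with Il1b than in the other in both libraries, at 2972 against 4671 CPM in the KO-labelled one (log2 -0.65) and 2296 against 3001 CPM in the WT-labelled one (log2 -0.39). Hsp90aa1 was lower there too (log2 -0.31 and -0.25). Dnajb1 (0.27) and Hsph1 (0.30) were higher in the cluster with Il1b of the KO-labelled library, with intervals that include equality in the WT-labelled one (0.06 and 0.17). The clusters with Il1b also had deeper cells, with medians of 3991 against 3091 UMIs in the KO-labelled and 7772 against 4178 UMIs in the WT-labelled library. Among endothelial-like clusters, the one with Cxcl12 among its top 10 genes had lower Hspa1b, Hsph1 and Dnajb1 than the other in both libraries, by -0.25 to -0.48 on the log2 scale.

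The wider chaperone network did not move as a block in microglia-like cells. Of the 24 listed genes that respond to Hsf1 or act as co-chaperones, 21 were measured at 20 CPM or more; 11 were above and 10 below equality, with a median log2 ratio of 0.07. Of all genes tested in these cells, 46.5% were above equality, so the 52.4% of this list lay close to the background. Bag3, a co-chaperone that links HSP70 to autophagy and is itself induced by Hsf1, had 50.8 CPM in KO-labelled and 28.8 CPM in WT-labelled cells (log2 0.82, 0.61 to 1.03). Stub1, the ubiquitin ligase CHIP, had 95.6 and 156 CPM (log2 -0.71), and Fkbp4, an HSP90 co-chaperone, 107 and 134 CPM (log2 -0.33). Hsf1 itself had 129 UMIs in KO-labelled and 305 UMIs in WT-labelled microglia-like cells, with a log2 ratio of 0.11 (-0.19 to 0.42), and Hsf2 at 4.73 and 3.31 CPM lay below the level set for comparison.

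Of the other lists, the cytosolic chaperonin and prefoldin, which fold actin and tubulin, had 11 of 13 measured members below equality with a median of -0.25, among them Pfdn6 (-0.52), Cct7 (-0.42) and Cct3 (-0.42). None of the 13 was past the fold, and 15.4% were above equality, beside 46.5% of all genes tested. Mitochondrial chaperones had 4 of 5 above equality with a median of 0.11, including Hspd1 (0.20), Hspe1 (0.17) and Hspa9 (0.06), with Grpel1 at -0.21. Of 18 endoplasmic reticulum chaperones and unfolded protein response genes, 10 (55.6%) were above equality with a median of 0.05. This lay near the 46.5% and -0.04 of all genes tested. Hsp90b1, the HSP90 of that compartment, was at 556 CPM in KO-labelled and 493 CPM in WT-labelled cells. Pdia4, a disulfide isomerase, was 2.19-fold higher (log2 1.13) and also 2.20-fold higher in endothelial-like cells (log2 1.14). Ddit3, the stress-induced transcription factor CHOP, was lower in both classes (-0.66 and -0.94), and Serpinh1, the collagen chaperone, was lower in microglia-like and higher in endothelial-like cells (-0.46 and 0.49). In microglia-like cells the sign of Serpinh1 turned once the library-wide profile was subtracted, to 12.2 CPM in KO-labelled cells against the 5 CPM minimum in WT-labelled ones.

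Among small heat shock proteins only Cryab reached the level set, at 14.3 CPM in KO-labelled and 29.2 CPM in WT-labelled microglia-like cells (log2 -1.03). With the library-wide profile subtracted it had 6.49 and 8.49 CPM (log2 -0.39), under both the level and the fold. Of 8 other HSP70, HSP110 and J-domain genes, 5 were below equality, including Hspa12b (-1.08), Dnajc15 (-0.43) and Dnajb14 (-0.25). The share above equality was 37.5%, beside 46.5% of all genes tested. With the library-wide profile subtracted, Hspa12b was at the 5 CPM minimum in both libraries, which ended the list's 1 call. Hspa12b, at 13.8 CPM in KO-labelled and 29.3 CPM in WT-labelled microglia-like cells, had a log2 ratio of 0.29 in endothelial-like cells, where 462 and 1118 UMIs were counted. The 14 immediate early genes, which mark dissociation and other acute stimulation, were all above equality in microglia-like cells, with a median of 0.69 and sums of 28160 CPM in KO-labelled and 17323 CPM in WT-labelled cells. Nr4a1 (1.48), Socs3 (1.15) and Zfp36 (1.12) had the largest ratios. In endothelial-like cells 10 of the 14 (71.4%) were above equality, with a median of 0.12, near the 61.3% and 0.09 of all genes tested. Both libraries had the same digestion per the labels, and the part of handling in the heat shock values was not tested.

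**Figure D5:**
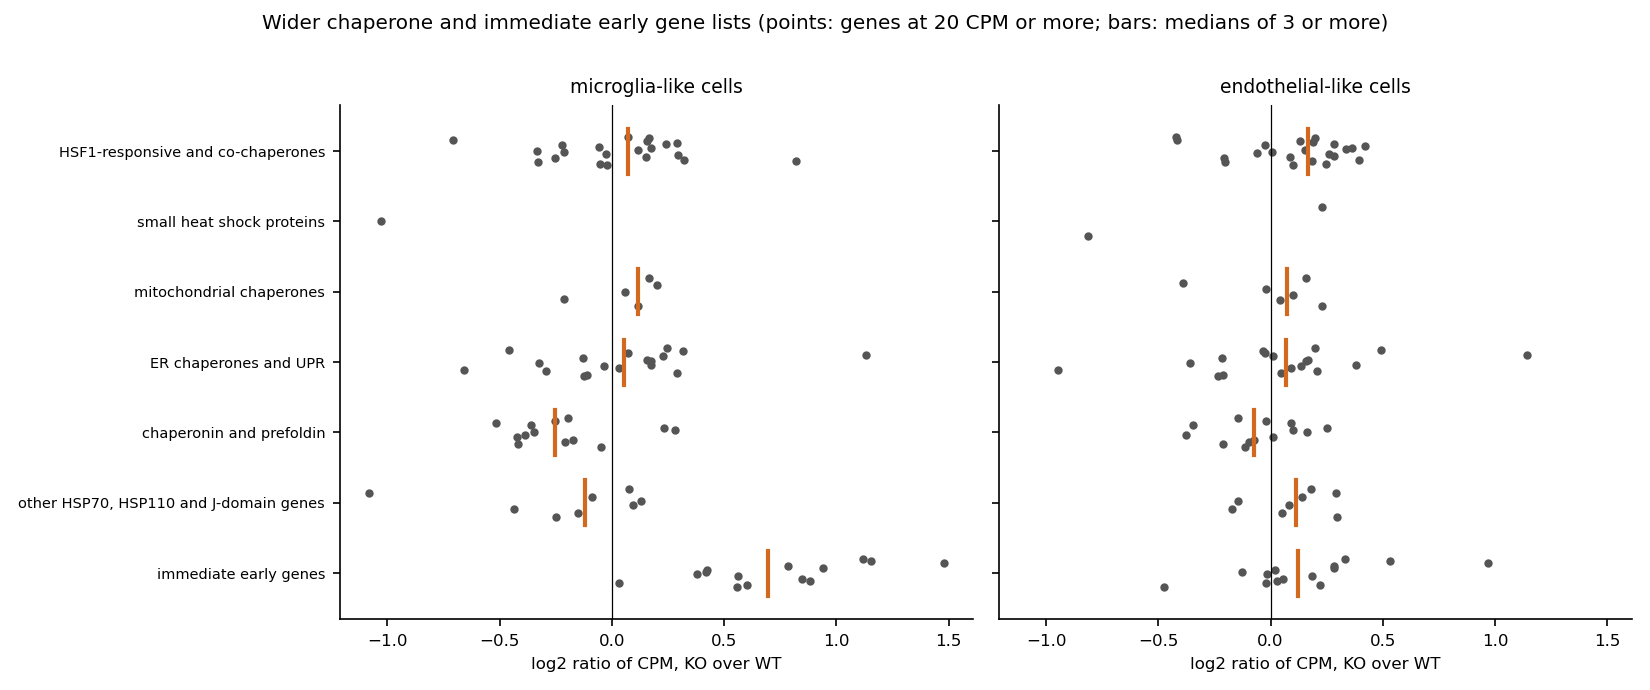
Log2 ratio of CPM (KO-labelled over WT-labelled, horizontal axes) of each measured gene (points) of 7 gene lists, with the median as a bar for lists of 3 or more, in microglia-like (left) and endothelial-like cells (right); ER is endoplasmic reticulum and UPR unfolded protein response. The immediate early genes have the highest median in microglia-like cells (0.69), and the chaperonin and prefoldin list the lowest of the lists with a bar (-0.25).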

How the data were processed

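Members and gene lists were chosen with earlier results of these data known. The deposited values are raw UMI counts per gene and barcode, 1 matrix per library. STAR, Cell Ranger 2.0.1, Seurat 2.1.0 and the builds mm10 and GRCm38.p5 are named per the submitters' processing notes, without role or order; how barcodes were filtered, and the use of strand, are not given in the sources used here. Hspa1a overlaps Gm20481, and Dnaja1 overlaps Smu1 and Gm6297, on the other strand.

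The cell filter (300 or more genes, mitochondrial UMIs of 10% or less) dropped 8 KO-labelled and 0 WT-labelled barcodes. Both libraries were clustered together with scanpy 1.11.5 and leidenalg 0.10.2 (2000 variable genes without the members and wider lists, 30 principal components, 15 neighbours, resolution 0.5) and clusters were named from 18 marker lists. A marker counted at 20 CPM or more and above 0.5 of its highest level over clusters. A name needed at least 3 counted markers, 0.5 of its list, and no other type leading the top 10 genes. A type leading the top 10 with at least 2 markers needed only that no rival list had a larger share. Any other type needed no rival list at 0.7 of its share. The pericyte or smooth muscle-like cluster was thus named with 9 of 9 endothelial markers also counted, and the erythrocyte-like one with 8 of 9. A mixed cluster of 140 KO-labelled and 446 WT-labelled cells stayed unnamed, with 33.3% of it at top Scrublet scores. Doublets were gated out at the sort per the labels' protocols, and no further ones were removed here. This naming rule was chosen with the clusters in view.

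UMIs were summed per class and library. CPM have exact Poisson intervals, log2 ratios exact conditional binomial intervals, and shares exact Clopper-Pearson intervals, all at 95% and for counting error only. The ratio step was tested on simulated data. Named genes were the 10 members, in each list up to 3 genes by absolute ratio in microglia-like cells, Hsf1, Hsf2, Hsp90b1, Hspa9, Hspd1, Hspe1, Bag3, the 5 nearest profiles of Hspa1a, Hspa8 and Hspb1 (log2 of CPM plus 5) and Runx1. Gene positions are from GENCODE M21 (27722 of 27998 identifiers found) and promoters from RefSeq. Alternatives covered scaling, cell weight, depth, cell filter, doublets, free RNA, clustering and the Hspa1a and Hspa1b sum, and 2 were added after the data were seen.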

Additional observations from a re-analysis of the deposited data

Results flagged for a closer look

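Of the 10 members, 3 had log2 ratios (KO-labelled over WT-labelled) of opposite sign in the 2 large classes with both intervals leaving out equality. Hspa8 was at 0.34 in microglia-like and -0.02 (-0.06 to 0.01) in endothelial-like cells, an interval that includes equality. The difference between the classes was not tested, because each class has 1 library per group. Dnajb1 was at 0.65 in microglia-like and -0.42 in endothelial-like cells, with intervals on opposite sides of equality. Dnaja1 was at -0.13 in microglia-like and 0.15 in endothelial-like cells. Hspa5 was at 0.088 in microglia-like and -0.26 in endothelial-like cells. For Dnajb1 both signs held in all alternatives run. Subtracting the library-wide RNA profile turned both signs for Dnaja1 (0.23 and -0.07) and for Hspa5 (-0.07 and 0.13).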

How the results depend on the processing

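No paired analysis was possible because each group has 1 library. The signs of the 5 inducible members that were higher in microglia-like cells, of Hspb1 (-1.20 to -0.93) and of Hspa8 were the same in every alternative that gave a value. Hspa1a, at 0.54, ranged from 0.52 to 0.86 and passed 1.5-fold in some settings; Dnajb1 ranged from 0.48 to 0.66 and Hsp90aa1 from 0.54 to 0.81, both under it in some. In endothelial-like cells Hspa1b and Hsph1 passed it at resolution 1.0 (0.69 each), and Dnajb1 on the lower side with the profile subtracted (-0.63). Hspa1b had 1.33 and Hspb1 -1.09 in cells with 2000 to 5000 CPM of endothelial markers, an alternative chosen after seeing the data. Keeping only cells with no UMI of 3 defining markers of the other class gave no value, since it left 68 KO-labelled and 0 WT-labelled microglia-like cells and 1 and 0 endothelial-like cells. With the library-wide RNA profile subtracted, the medians were 0.60 (inducible) and 0.17 (constitutive) in microglia-like cells and 0.14 (inducible) in endothelial-like cells, Cryab was at -0.39, the other HSP70, HSP110 and J-domain list at 0.083, and the small heat shock list of endothelial-like cells at 0.11, or 0.23 with a minimum of 50 CPM. Clustering each library on its own gave an inducible median of 0.78, but its naming rule left 669 KO-labelled cells unnamed; with all clusters that had 11 of 12 microglia markers, also chosen after seeing the data, no member of the class changed sign. Resolution 1.0 gave an inducible median of 0.22 in endothelial-like cells. Beside the 465 genes higher and 713 lower in microglia-like cells, a minimum of 50 CPM gave 260 and 360, no minimum 1035 and 1738, and a fold of 2 gave 105 and 308. For endothelial-like cells (333 and 385) these were 138 and 196, 793 and 830, and 40 and 180, and for pericyte or smooth muscle-like cells (536 and 392), 224 and 235 at 50 CPM and 152 and 173 at a fold of 2. The cause of these changes was not tested, apart from the number of genes that each minimum or fold admits. Depth limits Hsf2 and the ependymal-like class, and no value can be set against the variation between animals.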
